A study of Mus musculus with 10 samples.

Results

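The genes of glucuronidation, sulfation and flavin-dependent monooxygenation were taken by name from the table of gene expression. Of its 29868 genes, 34 had a symbol of the Ugt1a (9 genes), Ugt2a (2 genes), Ugt2b (5 genes), Ugt3a (2 genes), Sult (10 genes) or Fmo (6 genes) families. The UDP-glucuronosyltransferases of the Ugt1a, Ugt2a and Ugt2b families sit in the membrane of the endoplasmic reticulum and join glucuronic acid from UDP-glucuronic acid to drugs, steroids, bilirubin and other lipophilic compounds. The sulfotransferases (Sult) work in the cytosol and transfer a sulfonate group from the donor PAPS to phenols, catecholamines and steroids. The flavin-containing monooxygenases (Fmo) oxidise soft nucleophiles, mainly nitrogen and sulfur atoms of amines and sulfides, with NADPH and oxygen. All these families are known best from the liver, and the kidney tubule also carries members of each.

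RNA sequencing covered 10 libraries, 5 labelled MI+Nav and 5 labelled MI. By the study's protocol, all mice were wild-type male C57BL/6, aged 8 weeks at operation, and all of them had a myocardial infarction (MI) induced by tying off the left anterior descending coronary artery. The MI+Nav group received navarixin, an antagonist of the chemokine receptor CXCR2, at 1 mg/kg by mouth every day for 4 weeks, and the MI group received saline in the same way. No library of sham-operated mice was analysed here, and the day on which the sequenced tissue was taken and the mouse behind each library are not stated, so the p-values below measure the spread between these libraries, and some of that spread may be technical. The labels' batch field repeats the group name, so batch and treatment cannot be told apart.

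The labelled tissue was the heart, but the markers of heart muscle were near 0. All 11 cardiomyocyte markers found in the table averaged below 1 FPKM (fragments scaled by transcript length and by the mapped fragments of each library), and their sum was 0.730 to 1.42 FPKM in the MI+Nav libraries and 0.876 to 1.73 FPKM in the MI libraries. The 13 markers of the proximal tubule of the kidney had a median of 137 FPKM, and their sum was 36433 to 53641 FPKM in the MI+Nav libraries and 33329 to 59752 FPKM in the MI libraries. Kap, at a mean of 42853 FPKM, made up most of that sum. Of 9 hepatocyte markers in the table, 3 averaged below 1 FPKM and the median was 4.50 FPKM, while all 5 markers of the adrenal cortex averaged below 1 FPKM. The median was 30.6 FPKM for 5 markers of the loop of Henle and 9.92 FPKM for 7 markers of the collecting duct. These marker levels are those of kidney tubule rather than of heart muscle and differ from the tissue label. The values below are grouped by the libraries' labels of treatment, and the origin of the tissue was not tested. Depth was estimated at 16652100 to 20486600 fragments per library, and the share of mitochondrially encoded genes in the summed FPKM was 26.0 to 45.4% in the MI+Nav libraries and 24.4 to 40.6% in the MI libraries. The highest shares were those of MI+Nav 2, MI 3, MI+Nav 3 and MI 4.

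The genes of these families covered a wide range of expression, and a few of them were among the most abundant transcripts of the libraries. Averaged over the 10 libraries, 4 genes were at 100 FPKM or more, 7 between 10 and 100 FPKM, 8 between 1 and 10 FPKM and 15 below 1 FPKM. Ugt2b38 ranked 56th, Sult1d1 89th and Ugt3a2 119th of the 29868 genes by mean FPKM. The summed FPKM of the 34 genes made up 0.250 to 0.393% of all FPKM in the MI+Nav libraries and 0.212 to 0.451% in the MI libraries. Of the summed FPKM of the 34 genes, the Ugt2b family held 39.1%, the Sult family 23.9%, the Ugt3a family 20.9%, the Fmo family 8.15% and the Ugt1a family 7.93%. FPKM are relative to transcript length, so these levels can be set side by side between genes.

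**Figure D1:**
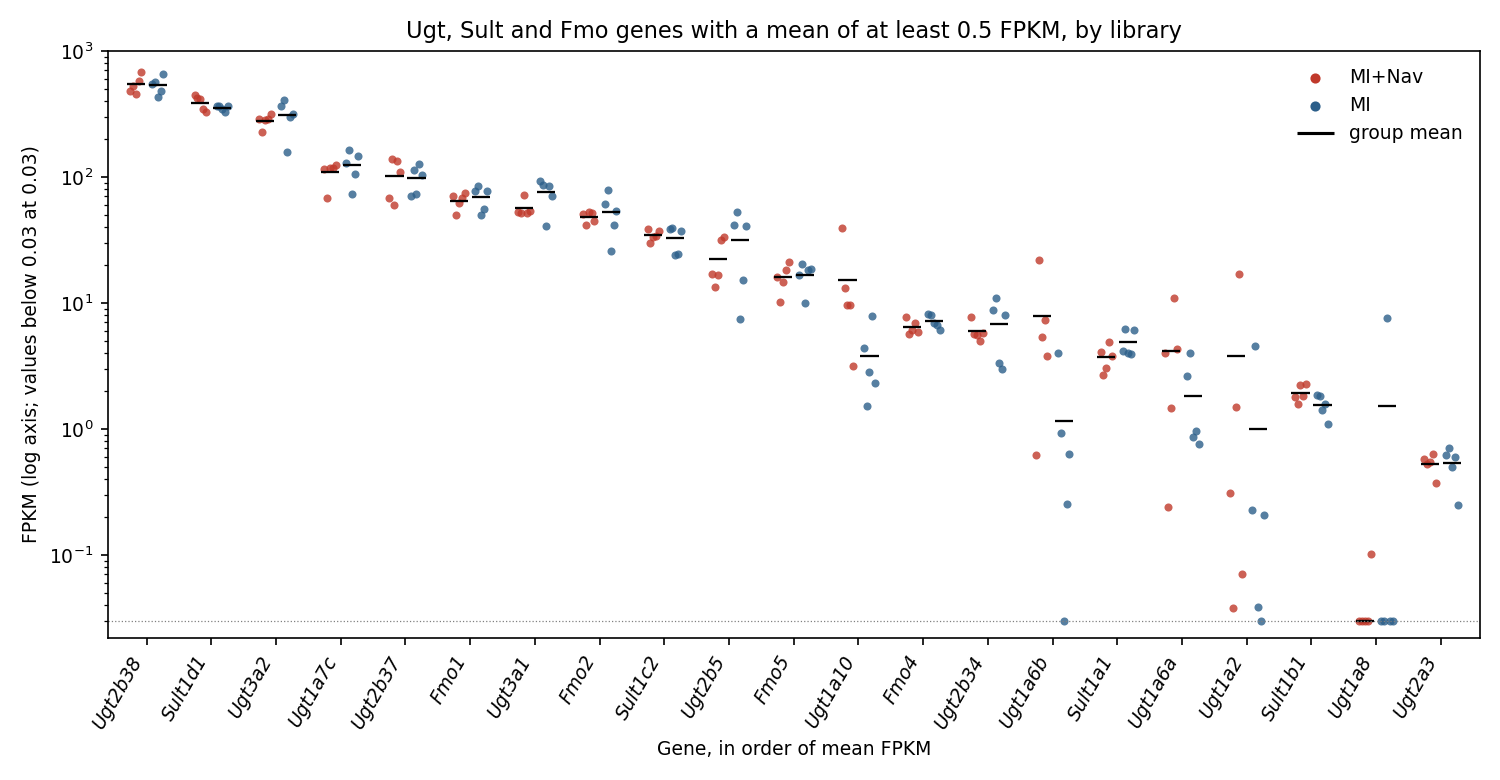
FPKM (log axis) of the 21 Ugt, Sult and Fmo genes with a mean of at least 0.5 FPKM, with a point for each library of the MI+Nav and MI groups and a line at each group mean. The groups overlapped for each of these genes, and the points of Ugt1a10, Ugt1a6b, Ugt1a6a, Ugt1a2 and Ugt1a8 were spread more widely than those of the other genes.

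The 9 Ugt1a genes lie on chromosome 1 (88055388 to 88220002 of mm10, plus strand). Each has a first exon of its own and all of them join it to the same exon 2 (88215044 to 88215175) and the exons after it, so that 1311 bases after the first exon were identical in all 9 transcripts. The sequences around this junction are shown for the 6 genes with the highest means, as the place where the gene's own part and the shared part of each transcript meet. Each line holds the last 30 coding bases of exon 1 in lower case and the first 30 bases of the shared exon 2 in capitals, from the GENCODE M21 transcripts on the same assembly.
Ugt1a7c: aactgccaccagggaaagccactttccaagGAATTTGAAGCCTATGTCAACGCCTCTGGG
Ugt1a10: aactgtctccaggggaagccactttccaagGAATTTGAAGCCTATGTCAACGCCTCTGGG
Ugt1a8: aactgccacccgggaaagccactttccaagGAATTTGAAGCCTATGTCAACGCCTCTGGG
Ugt1a6a: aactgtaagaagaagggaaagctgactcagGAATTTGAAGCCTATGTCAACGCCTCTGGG
Ugt1a6b: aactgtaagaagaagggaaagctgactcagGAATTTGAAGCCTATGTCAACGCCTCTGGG
Ugt1a2: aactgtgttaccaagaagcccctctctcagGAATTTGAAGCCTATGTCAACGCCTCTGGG
The capitals were the same on every line, and the lines of Ugt1a6a and Ugt1a6b were identical throughout. Over the whole transcript, 39.5% of the 100-base windows of Ugt1a7c also occurred in a transcript of another gene, against 57.5% for Ugt1a10, 58.2% for Ugt1a8, 62.9% for Ugt1a2, 71.4% for Ugt1a6a and 71.5% for Ugt1a6b. The coding sequences of Ugt1a6a and Ugt1a6b were 98.4% identical. Within exon 1 alone, coding identity was 97.0% for these 2 genes. It was 80.9% for Ugt1a7c with Ugt1a10, 84.2% with Ugt1a8, 58.9% with Ugt1a6a and 58.2% with Ugt1a2. The values of single Ugt1a genes are therefore uncertain where the authors' counting divided shared reads among them.

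Ugt1a7c was the leading gene of the locus in every library. It was at 116, 68.4, 117, 117 and 125 FPKM in the MI+Nav libraries and at 129, 163, 73.1, 106 and 147 FPKM in the MI libraries, here and below in the order of replicates 1 to 5. MI+Nav 2 and MI 3 were the lowest of their groups, and the groups overlapped. The gene held 65.9 to 96.9% of the summed FPKM of the 9 genes.

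Of the other Ugt1a genes, Ugt1a10 was highest in MI+Nav 1, Ugt1a6b in MI+Nav 2, Ugt1a6a and Ugt1a2 in MI+Nav 4 and Ugt1a8 in MI 3. Ugt1a10 was at 39.6, 13.1, 9.65, 9.68 and 3.17 FPKM in the MI+Nav libraries and at 4.41, 1.53, 2.81, 7.89 and 2.32 FPKM in the MI libraries. MI+Nav 1 stood far above the others, and 4 of 5 MI+Nav libraries lay above every MI library. Ugt1a6b, an enzyme of the subfamily that conjugates simple phenols, was at 0.615, 22.02, 5.39, 7.27 and 3.80 FPKM in the MI+Nav libraries and at 4.01, 0.931, 0, 0.252 and 0.631 FPKM in the MI libraries. Its highest value was that of MI+Nav 2, where Ugt1a7c was lowest, as were 44.6% of all tested genes, and the groups overlapped. Its near copy Ugt1a6a was at 4.01, 0.240, 1.46, 10.9 and 4.29 FPKM in the MI+Nav libraries and at 2.62, 3.97, 0.865, 0.956 and 0.764 FPKM in the MI libraries. Ugt1a2 reached 17.1 FPKM in MI+Nav 4 and 4.55 FPKM in MI 2, and no other library was above 1.49 FPKM. Ugt1a8 was at 7.57 FPKM in MI 3, at 0.101 FPKM in MI+Nav 5 and listed at 0 in the other libraries. Ugt1a1, the enzyme of bilirubin, averaged 0.223 FPKM, and Ugt1a5 and Ugt1a9 averaged below 0.01 FPKM.

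Summed over the 9 genes, the locus varied less than these single genes. The sum was 161, 104, 135, 163 and 136 FPKM in the MI+Nav libraries and 141, 174, 84.3, 115 and 151 FPKM in the MI libraries. The highest sum was 2.06 times the lowest, with a coefficient of variation of 20.7% over the 10 libraries. That of Ugt1a7c, which holds most of the sum, was close to it at 25.0%, against 120% for Ugt1a10 and 148% for Ugt1a6b. The lowest sums were again those of MI 3 and MI+Nav 2.

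**Figure D2:**
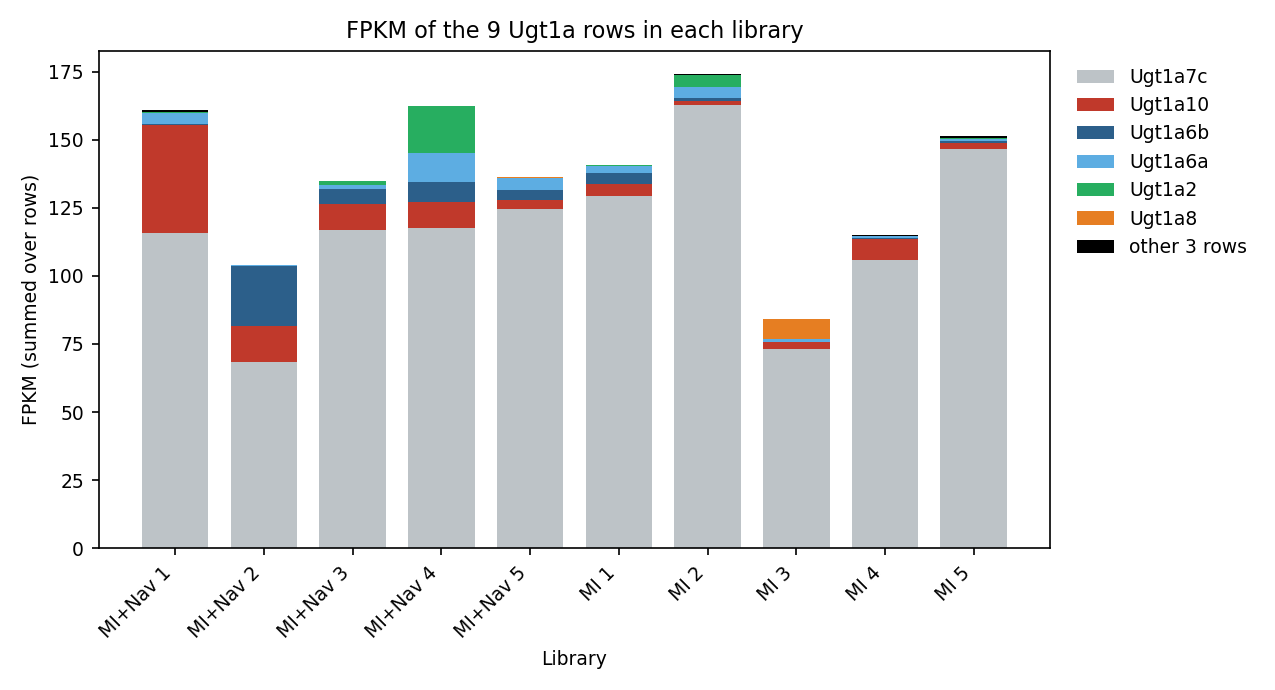
FPKM of the 9 Ugt1a genes stacked for each library, with the 5 MI+Nav libraries left of the 5 MI libraries. Ugt1a7c fills 65.9 to 96.9% of each bar, and the gene that fills the rest changes from library to library.

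The Ugt2b family, known for the glucuronidation of steroids and bile acids, was led by Ugt2b38 (chromosome 5, 87409942 to 87424203 of mm10). It was at 481, 525, 457, 573 and 683 FPKM in the MI+Nav libraries and at 542, 567, 431, 477 and 659 FPKM in the MI libraries. Replicate 5 was the highest of each group, and the ranges lay almost on top of each other. Ugt2b37 was at 67.4, 137, 60.1, 134 and 109 FPKM in the MI+Nav libraries and at 69.9, 114, 73.1, 127 and 104 FPKM in the MI libraries. Ugt2b38 was above Ugt2b37 in 10 of 10 libraries, by 3.76 to 7.76 times. Ugt2b5 was the most variable of the family, at 17.1, 13.3, 16.6, 31.5 and 33.4 FPKM in the MI+Nav libraries and at 41.7, 52.8, 7.46, 15.3 and 40.6 FPKM in the MI libraries. The MI libraries fell on both sides of the MI+Nav libraries, 3 above all of them and 1 below. The coding sequences of Ugt2b38 and Ugt2b5 were 97.0% identical. Over the whole transcript, 434 of the 100-base windows of each (24.2% of those of Ugt2b38) also occurred in the other or in Ugt2b37. The division of reads among these genes is therefore uncertain. Ugt2b34 ranged from 4.94 to 7.70 FPKM in the MI+Nav libraries and from 2.96 to 11.0 FPKM in the MI libraries. Ugt2b35 averaged 0.0029 FPKM. Of the Ugt2a family, Ugt2a3 averaged 0.53 FPKM, which at this depth came to an estimated 9.55 to 27.9 fragments per library, and Ugt2a1, a gene of the olfactory epithelium, averaged 0.0060 FPKM.

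Both Ugt3a genes were expressed. In human enzymes, UGT3A1 uses UDP-N-acetylglucosamine and UGT3A2 uses UDP-glucose and UDP-xylose in place of UDP-glucuronic acid. Ugt3a2 (chromosome 15, 9335550 to 9370955 of mm10) was at 289, 225, 283, 285 and 314 FPKM in the MI+Nav libraries and at 363, 408, 158, 300 and 314 FPKM in the MI libraries. MI 3 was the lowest library by far, and 3 of 5 MI libraries lay above every MI+Nav library. For MI 5 this was nearly a tie, at 314.2 FPKM against 313.7 FPKM in MI+Nav 5. Its neighbour Ugt3a1 (9276888 to 9315032) was at 52.4, 51.2, 72.1, 51.9 and 53.1 FPKM in the MI+Nav libraries and at 93.4, 85.8, 40.5, 85.1 and 71.0 FPKM in the MI libraries. Apart from MI+Nav 3, the MI+Nav libraries were close together, while 3 MI libraries lay above and MI 3 below all of them. Ugt3a2 was 3.52 to 5.91 times Ugt3a1 within a library. The coding sequences of these genes were 93.2% identical but shared no window of 100 bases.

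Of the 10 sulfotransferases, 4 averaged at least 1 FPKM. Sult1d1 (chromosome 5, 87554645 to 87569027 of mm10), which in mice sulfates dopamine and other catecholamines, was at 442, 418, 411, 342 and 325 FPKM in the MI+Nav libraries and at 367, 366, 342, 325 and 366 FPKM in the MI libraries. Its MI libraries were close together, 3 MI+Nav libraries were above all of them, and at 11.0% it had the lowest coefficient of variation of the tested genes of these families. Sult1c2 was at 38.9, 29.8, 33.4, 34.0 and 37.1 FPKM in the MI+Nav libraries and at 38.8, 39.5, 24.1, 24.6 and 37.0 FPKM in the MI libraries. Sult1a1, the main phenol sulfotransferase, averaged 3.68 ± 0.873 FPKM in the MI+Nav group and 4.88 ± 1.18 FPKM in the MI group (SD, n = 5 each). Sult1b1, which acts on thyroid hormones, averaged 1.94 ± 0.299 FPKM in the MI+Nav group and 1.55 ± 0.306 FPKM in the MI group (SD, n = 5 each). The other sulfotransferases averaged below 0.2 FPKM. They were Sult1e1, which inactivates estrogens, Sult2b1, which acts on cholesterol, Sult4a1, a gene of the brain, and Sult5a1, Sult6b1 and Sult6b2. Sult4a1 was at 1.67 FPKM in MI+Nav 1 and listed at 0 in 6 libraries.

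Of the 6 monooxygenases, 4 were expressed, in the same order in every library. Fmo1 (chromosome 1, 162829561 to 162866610 of mm10), the main form of the adult human kidney, was at 70.2, 49.5, 61.6, 67.9 and 74.0 FPKM in the MI+Nav libraries and at 76.5, 84.3, 50.2, 55.3 and 77.0 FPKM in the MI libraries. Fmo2, best known from the lung, was at 50.4, 41.7, 52.2, 51.4 and 44.8 FPKM in the MI+Nav libraries and at 61.0, 78.7, 25.9, 41.1 and 53.6 FPKM in the MI libraries. For both genes, 3 MI libraries lay above every MI+Nav library, and MI 3 was the lowest of the MI group. For Fmo2, 2 MI libraries also lay below every MI+Nav library. For Fmo1, 1 MI+Nav library lay below every MI library. Fmo5, which in humans carries out Baeyer-Villiger oxidations of ketones, averaged 16.0 ± 4.11 FPKM in the MI+Nav group and 16.8 ± 4.02 FPKM in the MI group (SD, n = 5 each). Fmo4 averaged 6.46 ± 0.851 FPKM in the MI+Nav group and 7.17 ± 0.866 FPKM in the MI group (SD, n = 5 each). Fmo6 averaged 0.0028 FPKM.

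Neighbouring genes of a cluster could differ in level by several orders of magnitude. Most of the genes, 26 of 34, lay in 4 clusters with less than 1 Mb between neighbours. The cluster of chromosome 5 (86889767 to 87591594 of mm10) held 10 genes of the Ugt2b, Ugt2a and Sult families. Ugt2b38 at 539 FPKM and Ugt2a1 at 0.0060 FPKM were next to each other among these genes, as were Sult1d1 at 371 FPKM and Sult1e1 at 0.011 FPKM. In the Fmo cluster of chromosome 1, Fmo4, Fmo1 and Fmo2 were expressed, and Fmo6 beyond them was near 0.

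**Figure D3:**
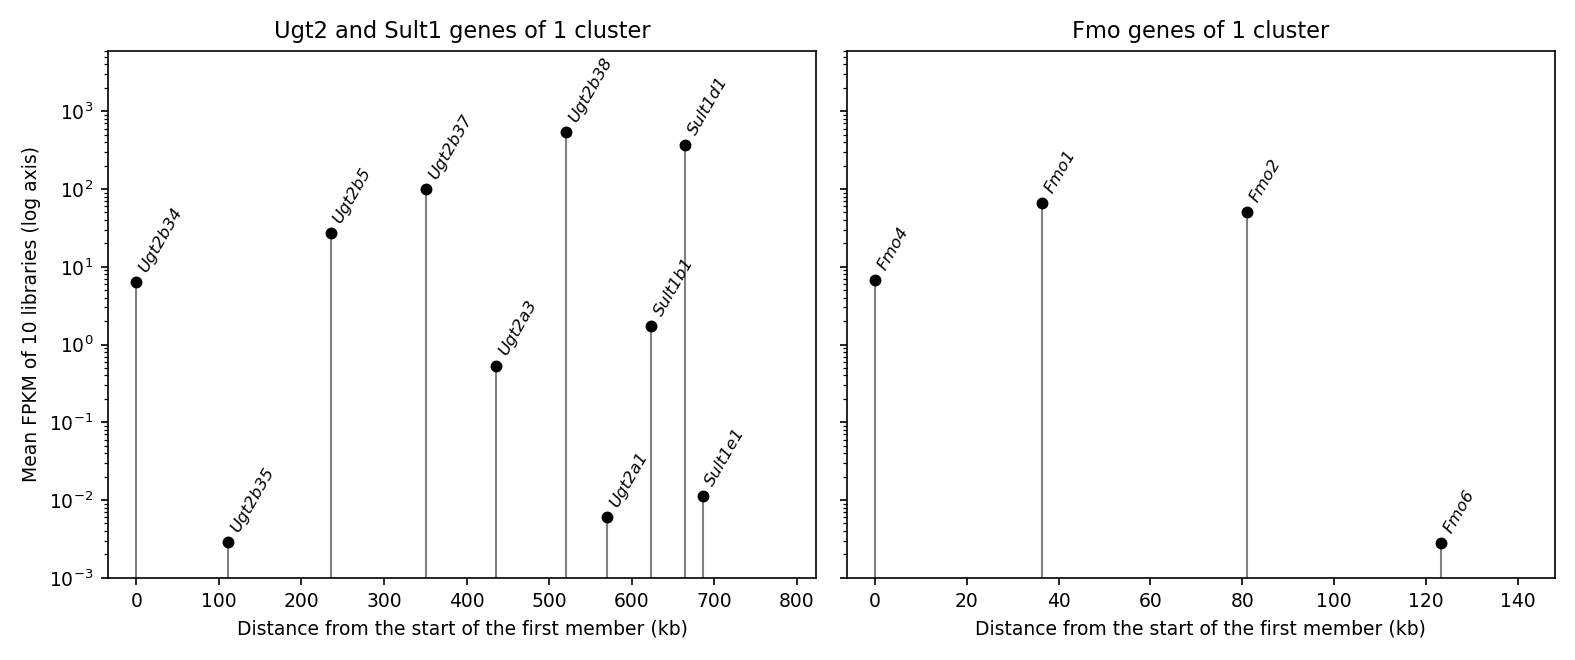
Mean FPKM of the 10 libraries (log axis) against the distance in kb from the start of the first gene, for the 10 genes of the cluster of chromosome 5 (left) and for Fmo4, Fmo1, Fmo2 and Fmo6 of the Fmo cluster of chromosome 1 (right). In the left panel the means run between 0.0029 and 539 FPKM with high and low genes side by side.

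The order of the levels was firm for some neighbours and open for others. Ugt2b38 was above Sult1d1 in 10 of 10 libraries, Sult1d1 was above Ugt3a2 in 9 of 10 and Ugt3a2 above Ugt1a7c in 10 of 10. Ugt1a7c and Ugt2b37 (6 of 10), Ugt2b37 and Fmo1 (7 of 10) and Fmo1 and Ugt3a1 (5 of 10) changed places between libraries. MI 3 held the lowest value of 8 of the 19 tested genes of these families, against 21.5% of all tested genes, and MI+Nav 2 that of 5, against 44.6%. MI 2 held the highest value of 9, against 25.9%. The part of the mitochondrial share in these values was not tested.

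To see how expression in the MI+Nav group differed from that in the MI group, the 13412 genes that reached 0.5 FPKM in 5 or more libraries were fitted with limma on log2(FPKM + 0.5), a scale that understates the change of low genes. The filter left 19 of the 34 genes. None of the 19 passed a Benjamini-Hochberg adjusted p of 0.05 in limma, where 0.365% of all tested genes passed, 2 of them higher and 47 lower. Accordingly, none was called by also asking for a log2 fold change of 1 or more in either direction, against 0.224% of all tested genes. At an unadjusted p under 0.05, 2 of the 19 were higher and none lower in the MI+Nav group, against 1.25% higher and 11.5% lower among all tested genes. None of the 19 had groups that did not overlap, against 2.84% of all tested genes. The median log2 fold change of the 19 genes was -0.03, beside -0.12 for all tested genes, with 9 above 0 and 10 below.

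The 2 genes at an unadjusted p under 0.05 were Ugt1a6b and Ugt1a10. Ugt1a6b averaged 7.82 ± 8.31 FPKM in the MI+Nav group and 1.16 ± 1.63 FPKM in the MI group (SD, n = 5 each), a log2 fold change of 2.16 with an SE of 0.76 and an adjusted p of 0.277 in limma. Ugt1a10 averaged 15.0 ± 14.2 FPKM in the MI+Nav group and 3.79 ± 2.52 FPKM in the MI group (SD, n = 5 each), a log2 fold change of 1.61 with an SE of 0.57 and an adjusted p of 0.279 in limma. Both kept their direction in every alternative fit, but the log2 fold change of Ugt1a6b was 0.78 without the 4 libraries of highest mitochondrial share and 0.97 with array weights. The 9 Ugt1a genes summed to a single value gave a log2 fold change of 0.09 with a 95% interval of -0.33 to 0.52, in a fit added after the data were seen. Ugt1a7c, which holds most of that sum, had a log2 fold change of -0.16 with an interval of -0.65 to 0.32. Both values are from the deposited FPKM, and the summed value was higher under the other scaling described below.

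Outside the Ugt1a locus, the log2 fold changes of the 15 tested genes lay between -0.37 and 0.25. Ugt3a1 was the lowest, at 56.2 ± 8.93 FPKM in the MI+Nav group and 75.1 ± 21.0 FPKM in the MI group (SD, n = 5 each), with a log2 fold change of -0.37 (SE 0.21) and an adjusted p of 0.470 in limma. It was the only gene of these families that passed in any alternative, and in both of those fits more of all tested genes passed too. With array weights its log2 fold change was -0.61 (adjusted p = 0.0351 in limma, where 2.82% of all tested genes passed), and without the 4 libraries of highest mitochondrial share it was -0.65 (adjusted p = 0.0313 in limma, where 2.58% passed). Over all 21 alternatives its adjusted p ran between 0.0313 and 0.765. Without MI 3, its lowest library, it was -0.58 (adjusted p = 0.140 in limma).

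On the deposited FPKM, the intervals of several abundant genes stayed within a log2 fold change of 1 in either direction. The 95% interval of the log2 fold change was -0.31 to 0.36 for Ugt2b38, -0.15 to 0.40 for Sult1d1, -0.56 to 0.39 for Ugt3a2, -0.65 to 0.32 for Ugt1a7c and -0.44 to 0.30 for Fmo1. It was wider for Fmo2 (-0.54 to 0.49) and for Ugt2b37 (-0.54 to 0.57), and widest outside the Ugt1a locus for Ugt2b5 (-1.37 to 0.82). Sult1a1 was at -0.36 (-0.76 to 0.04) and Sult1b1 at 0.25 (-0.07 to 0.58). The 4 Fmo genes were all between -0.14 and -0.03.

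The sign of these small differences depended on the scaling. The FPKM are not rescaled to a common sum, and median-of-ratios size factors moved the median of all tested genes to 0.03 on the log2 scale, against -0.12 without them. The median of the 19 genes moved with it to 0.13, with 16 above 0 and 3 below, against 9 above and 10 below without size factors. The genes still below 0 were Sult1a1, Ugt3a1 and Ugt2b5. At an unadjusted p under 0.05, Sult1b1 (0.39) and Sult1c2 (0.29) joined Ugt1a10 (1.77) and Ugt1a6b (2.33), so that 4 of the 19 were higher, while the share of all tested genes higher at that p was 8.82%, against 1.25% without size factors. After size factors no gene of these families passed the adjusted p, with 0.187 the lowest in limma. The summed value of the Ugt1a genes rose from 0.09 to 0.28 with size factors. Its interval was then -0.03 to 0.59 (unadjusted p = 0.075 in limma).

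**Figure D4:**
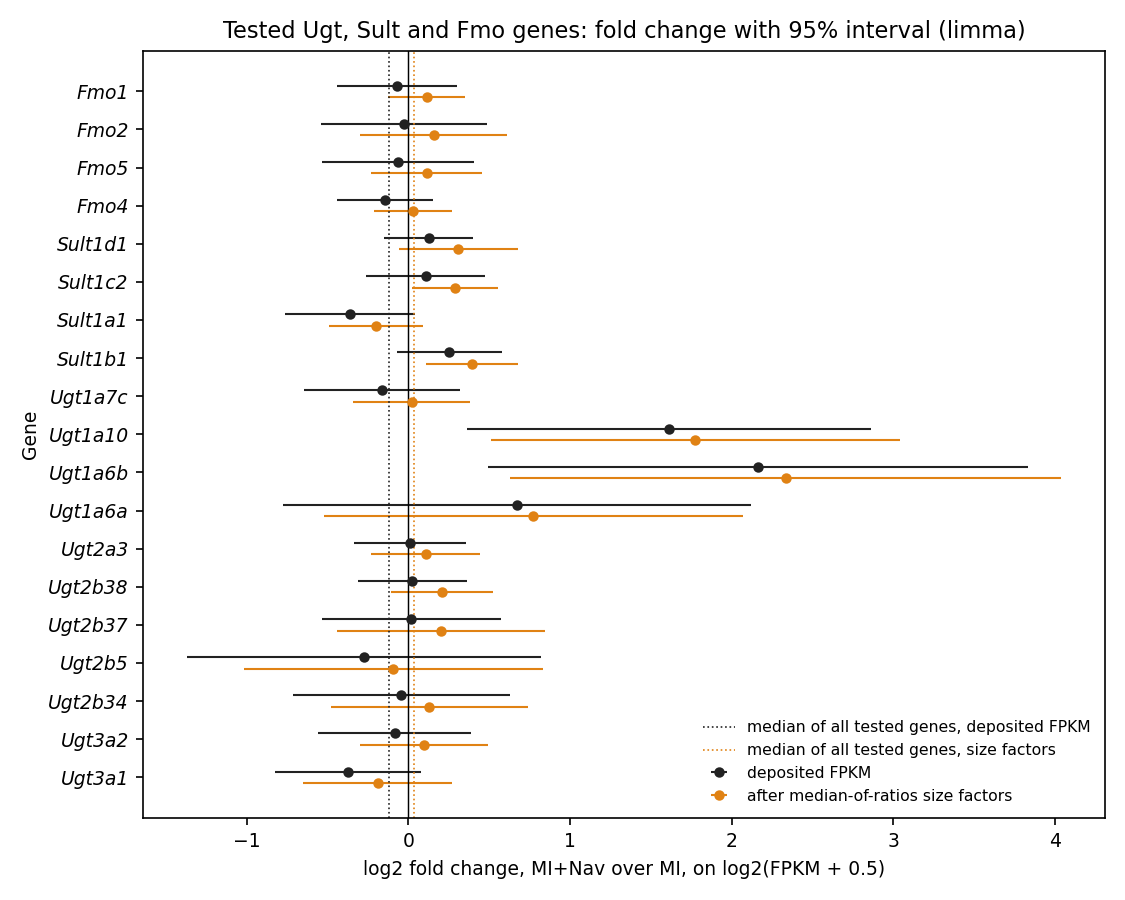
Log2 fold change of MI+Nav over MI with its 95% interval from limma for the 19 tested genes, from the deposited FPKM (black) and after median-of-ratios size factors (orange). The dotted lines are the medians of all tested genes, -0.12 and 0.03, and the intervals of Ugt1a10 and Ugt1a6b are the ones that lie above 0 in both.

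The pathways that feed and follow these enzymes were read from the same fit. None of their tested genes passed an adjusted p of 0.05 in limma: 0 of 4 in the supply and hydrolysis of glucuronides, 0 of 9 in the supply of sulfate and PAPS, 0 of 14 other conjugating enzymes, 0 of 3 exporters of conjugates, 0 of 12 regulators and 0 of 9 target genes of AhR and NRF2. At an unadjusted p under 0.05, the supply lists held none, the other conjugating enzymes 1 higher (Nat1) and 2 lower (Acsm3 and Tpst1), the exporters 1 lower (Abcc2), the regulators 3 lower (Arnt among them) and the AhR and NRF2 targets 1 higher (Cyp1a1) and 2 lower (Cyp1b1 and Gclc), named here after their values were seen. Among all tested genes 1.25% were higher and 11.5% lower at that p. The median log2 fold change was -0.04 for the supply and hydrolysis of glucuronides, -0.06 for the supply of sulfate and PAPS, -0.04 for the other conjugating enzymes, -0.01 for the exporters, -0.16 for the regulators and -0.22 for the AhR and NRF2 targets, beside -0.12 for all tested genes.

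Several of these genes were as abundant as the enzymes themselves. Ugdh, which makes UDP-glucuronic acid, averaged 14.2 ± 0.752 FPKM in the MI+Nav group and 15.1 ± 2.44 FPKM in the MI group (SD, n = 5 each). Ugp2, which makes its precursor UDP-glucose, averaged 45.5 ± 5.47 FPKM in the MI+Nav group and 46.5 ± 10.0 FPKM in the MI group (SD, n = 5 each). Gusb, the lysosomal enzyme that hydrolyses glucuronides, averaged 4.39 ± 1.09 FPKM in the MI+Nav group and 5.67 ± 1.21 FPKM in the MI group (SD, n = 5 each). None of these 3 genes reached an unadjusted p under 0.05. The PAPS synthase Papss2 averaged 51.7 ± 6.67 FPKM in the MI+Nav group and 54.5 ± 9.89 FPKM in the MI group (SD, n = 5 each). Slc13a1, the sodium-sulfate cotransporter of the renal brush border, averaged 33.6 ± 4.74 FPKM in the MI+Nav group and 30.1 ± 8.01 FPKM in the MI group (SD, n = 5 each). Bpnt1, which degrades the spent donor PAP, averaged 74.5 ± 18.4 FPKM in the MI+Nav group and 82.2 ± 33.6 FPKM in the MI group (SD, n = 5 each). The libraries of the groups overlapped for these genes too. The methyltransferase Inmt averaged 613 ± 159 FPKM in the MI+Nav group and 595 ± 123 FPKM in the MI group (SD, n = 5 each). Among the exporters, Abcg2 averaged 44.1 ± 7.53 FPKM in the MI+Nav group and 46.1 ± 14.7 FPKM in the MI group (SD, n = 5 each). Abcc2, an efflux pump for glucuronides, averaged 20.1 ± 3.64 FPKM in the MI+Nav group and 27.2 ± 5.78 FPKM in the MI group (SD, n = 5 each), with an adjusted p of 0.362 in limma. Hnf4a, a nuclear receptor that drives proximal tubule and liver genes, averaged 95.7 ± 9.91 FPKM in the MI+Nav group and 112 ± 31.4 FPKM in the MI group (SD, n = 5 each). Gclc, a target gene of NRF2 that makes glutathione, averaged 40.5 ± 5.29 FPKM in the MI+Nav group and 70.1 ± 28.2 FPKM in the MI group (SD, n = 5 each), with an adjusted p of 0.270 in limma.

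Markers of other cell types were read from the same fit, in which 0.365% of all tested genes passed the adjusted p and 11.5% were lower at an unadjusted p under 0.05. The 13 proximal tubule markers had a median log2 fold change of 0.01, with 5 below 0, and none passed the adjusted p in limma. The shorter lists of tubule segments lay lower, at a median of -0.27 for 5 markers of S1 and S2 (3 below 0) and of -0.28 for 7 markers of S3 (6 below 0), and none of these reached an unadjusted p under 0.05. All 5 podocyte markers and all 5 markers of the loop of Henle were below 0, with 3 podocyte markers and none of the loop of Henle at an unadjusted p under 0.05. Of 4 distal tubule markers 3 were below 0, and 2 were lower at that p. Of 7 collecting duct markers 1 was below 0, and none reached that p. Cfd, 1 of 2 tested adipocyte markers, was higher at that p (8.96 ± 9.59 FPKM in MI+Nav, 0.220 ± 0.256 FPKM in MI), against 1.25% of all tested genes. Fabp4, the other of the 2, was below 0 at -0.61 and did not reach that p (5.93 ± 3.56 FPKM in MI+Nav, 8.28 ± 3.13 FPKM in MI). Of 6 tested hepatocyte markers, 1 was higher and 1 lower at that p. None of these passed the adjusted p in limma. Of 10 endothelial markers, 2 were lower in the MI+Nav group at an adjusted p under 0.05 in limma (Eng and Robo4) and all 10 were below 0 and at an unadjusted p under 0.05, with sums of 17.1 to 36.8 FPKM in the MI+Nav libraries and 31.7 to 76.3 FPKM in the MI libraries. None of 6 tested macrophage markers passed in limma, and all 6 were below 0 and at an unadjusted p under 0.05. The sum of all 9 macrophage markers, tested or not, was 15.5 to 35.0 FPKM in the MI+Nav libraries and 29.0 to 84.0 FPKM in the MI libraries. The sum of 10 markers of urothelium and simple epithelium was 65.4 to 334 FPKM in the MI+Nav libraries and 94.1 to 114 FPKM in the MI libraries, with all 10 above 0 on the log2 scale and none past the adjusted p in limma or at an unadjusted p under 0.05. In such bulk libraries, fewer cells of a type and less RNA per cell cannot be told apart, and the part of cell composition in the values of the Ugt, Sult and Fmo genes was not tested.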

How the data were processed

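Per the labels and the study's methods, mRNA selected by poly(A) was made into strand-marked libraries and read from both ends. Tools named in the submitters' processing notes were cutadapt 1.9, HISAT2 2.0.4, and StringTie 1.3.4d, with the build mm10. The authors deposited FPKM values per gene and library, normalised to transcript length and mapped fragments. The annotation release was not given in the sources used here. The authors' differential expression used DESeq2 and edgeR, which need counts, so limma 3.58.1 (R 4.3.3; lmFit, then eBayes with a trended and robust prior) was fitted by group on log2(FPKM + 0.5) over the 13412 genes that reached 0.5 FPKM in 5 or more of 10 libraries, with Benjamini-Hochberg adjustment over all of them. Depth was estimated from the smallest steps of genes with a single transcript. Transcript sequences came from GENCODE M21, found for 32 of the 34 genes. Text names the genes of the families, apart from items that are not reported here, and of the other lists the members past the adjusted p or up to 3 of highest mean, with others marked as named after their values were seen. Genes and lists were chosen with earlier results of these data known. The procedure was tested on simulated data.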

Additional observations from a re-analysis of the deposited data

Results flagged for a closer look

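In the 42 groups of 5 libraries examined (21 genes with a mean of at least 0.5 FPKM), 8 held a library far from the other 4 by Dixon's criterion at 95%. Chance gives this in about 1 in 20 independent groups of normally distributed values. The FPKM were examined without a log, and several of these genes were near 0, so the 8 cannot be set against that rate. Of the 8, 7 were Ugt1a genes, which share reads. Both groups of Ugt1a8 met the criterion because the other 4 libraries were listed at 0, where any value would. In the MI+Nav group, Ugt1a10 was at 39.58 FPKM in MI+Nav 1 (3.17 to 13.14 FPKM in the others), Ugt1a2 at 17.08 FPKM in MI+Nav 4 (0.038 to 1.49 FPKM), Ugt1a8 at 0.1013 FPKM in MI+Nav 5 (listed at 0 in the others), and Ugt1a7c at 68.42 FPKM in MI+Nav 2, below the others (116 to 125 FPKM). In the MI group, Ugt1a6b was at 4.01 FPKM in MI 1 (0 to 0.931 FPKM in the others), Ugt1a2 at 4.548 FPKM in MI 2 (0 to 0.225 FPKM) and Ugt1a8 at 7.572 FPKM in MI 3 (listed at 0 in the others). Outside the locus, Ugt3a1 was at 72.08 FPKM in MI+Nav 3, above the other MI+Nav libraries (51.2 to 53.1 FPKM). The part of read sharing between the Ugt1a genes in these values was not tested.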

How the results depend on the processing

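Over the alternative settings, 396 values of the tested genes were computed, of which 2 passed the adjusted p and 45 had the opposite sign. None of the values of opposite sign was beyond 0.158 in size or had an adjusted p under 0.634 in limma, and they belonged to 11 of the 19 genes. The count past the adjusted p, 0 of 19, was 1 (Ugt3a1) with array weights and 1 (Ugt3a1) without the 4 libraries of highest mitochondrial share, where 2.82% and 2.58% of all tested genes passed, against 0.365%. The count higher at an unadjusted p under 0.05, 2, was 1 (Ugt1a10) with a minimum of 1 FPKM in all 10 libraries, 3 with no filter (Sult2b1 joined), 3 with the mitochondrial share as covariate (Ugt1a6a joined), 4 with size factors, 0 with array weights, 0 without those 4 libraries and 1 to 3 without single libraries (1, Ugt1a10, without MI 3 or MI 4, and 3, with Ugt1a6a, without MI+Nav 2). Of all tested genes, 1.18%, 1.07%, 4.49%, 8.82%, 5.08% and 5.53% were higher in the first 6 of these fits, and 0.763 to 1.87% without single libraries. The count lower, 0, was 1 (Ugt3a1) with array weights, 1 (Sult1a1) with the mitochondrial share as covariate, 5 (Ugt3a1, Ugt1a7c, Ugt2b5, Ugt2b34 and Fmo2) without those 4 libraries and 0 to 2 without single libraries (Ugt3a1 and Ugt3a2 without MI 3, Sult1a1 without MI+Nav 4), where 17.2%, 12.4%, 14.3% and 6.89 to 13.9% of all tested genes were lower, against 11.5%. The pathway genes past the adjusted p, 0, were 1 (Cyp1b1) with array weights, 2 (Cyp1b1 and Abcc3) without those 4 libraries and 0 to 2 without single libraries (Cyp1b1 and Tpst1 without MI 4).

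Log2 fold changes of the opposite sign were, with size factors, 0.028 (Fmo4), 0.020 (Ugt1a7c), 0.11 (Fmo1), 0.098 (Ugt3a2), 0.11 (Fmo5), 0.13 (Ugt2b34) and 0.16 (Fmo2). With array weights they were -0.0079 (Sult1c2), 0.031 (Fmo5) and -0.061 (Ugt2a3). With the covariate they were 0.015 (Fmo1), 0.0068 (Ugt3a2), 0.050 (Fmo5), 0.059 (Ugt2b34), 0.064 (Fmo2) and -0.0078 (Ugt2a3). Without the 4 libraries they were -0.069 (Sult1c2) and -0.035 (Ugt2b38), and with a common sum over the genes that are not mitochondrial -0.015 (Ugt2b38), -0.022 (Ugt2b37) and -0.015 (Ugt2a3). The summed Ugt1a value was 0.094, against -0.16 for Ugt1a7c alone. With size factors it was 0.28, against 0.020 for Ugt1a7c alone. Without single libraries the ranges were -0.17 to 0.022 (Fmo1), -0.31 to 0.032 (Ugt3a2), -0.23 to 0.083 (Fmo5), -0.062 to 0.10 (Ugt2b38), -0.27 to 0.16 (Ugt2b34), -0.25 to 0.15 (Fmo2), -0.11 to 0.18 (Ugt2b37) and -0.10 to 0.068 (Ugt2a3). The causes were not tested.

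The replicate numbers did not pair the libraries (correlations of deviations between -0.22 and 0.05, 1 of 10 libraries closest to its own number). With a replicate block, 1 gene (Ugt1a10) was higher at an unadjusted p under 0.05 and none passed the adjusted p, and over all genes 6 passed it, against 49 without the block. Depth limits the low genes, such as Ugt2a3 (an estimated 9.55 to 27.9 fragments).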
